A study of Mus musculus with 56 samples.

Results

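Genes of the astrocyte reaction were followed in spinal cord of mice that carry a human TDP-43 transgene, with motor neuron RNA of the same study beside them. The genes are Gfap, Vim, Serpina3n, Lcn2, Timp1, Osmr, S1pr3, Cd44 and Steap4. They were chosen by name as genes of astrocyte reaction, with earlier results of these data known, and are 9 of the 43629 genes counted. All 9 passed the filter on low counts, which left 18838 genes for testing.

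Astrocytes answer injury and disease of the nervous system with a change of shape and of gene expression called reactivity. Reactive astrocytes enlarge their skeleton of intermediate filaments, secrete protease inhibitors and acute phase proteins, and carry more receptors for cytokines, lipids and matrix. In the spinal cord this reaction is a regular companion of motor neuron disease, and Gfap is its best known marker. A cytokine route often tied to it runs from oncostatin M and related ligands through the receptor subunit gp130 to the transcription factor STAT3.

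The 3 genotypes were compared at 2 ages. All mice carried the Chat bacTRAP transgene (line DW167), which puts an EGFP-tagged ribosomal protein L10a under the Chat promoter of a bacterial artificial chromosome, and the lines were kept on C57BL/6J. Chat bacTRAP mice carried nothing else. hTDP-43 A315T mice also carried human TDP-43 with the disease mutation A315T (line 95Balo/J), and hTDP-43 WT mice carried normal human TDP-43 (line 3cPtrc/J). Both human genes are driven by the prion promoter, which is active in neurons and in other cells. The hTDP-43 WT line was hemizygous and showed no symptoms. The mice were females, and hTDP-43 A315T mice were free of symptoms at 9 weeks and in an early symptomatic phase at 14 weeks. Spinal cord libraries are the unpurified lysate that was set aside before purification. MN-TRAP libraries are the RNA bound to tagged ribosomes of Chat-expressing cells, chiefly motor neurons. The labels name cervical spinal cord as the tissue. There were 31 spinal cord libraries: 4 and 5 of hTDP-43 A315T at 14 and 9 weeks, 5 and 6 of hTDP-43 WT, and 5 and 6 of Chat bacTRAP. MN-TRAP had 25 libraries, in the same order 4 and 5, 5 and 3, and 4 and 4.

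Spinal cord libraries held 17.5 to 86.7 M counted reads (median 40.4 M) and MN-TRAP libraries 0.472 to 256 M (median 19.6 M). All 15 genes of an astrocyte identity list were detected in every spinal cord group. A pseudogene beside the prion locus, Lamr1-ps1, was read at 0.48 to 2.93 CPM (read counts scaled to the library total) in all 18 hTDP-43 A315T libraries and at no more than 0.04 CPM in the control spinal cords. In 3 control MN-TRAP libraries (hTDP-43 WT 14 weeks replicate 5, hTDP-43 WT 9 weeks replicate 3 and Chat bacTRAP 9 weeks replicate 4) it stood at 1.11 to 1.69 CPM, which goes against their labels. No spinal cord library did so. Where a call in MN-TRAP changes without these 3, both values are given. All CPM values other than those of Lamr1-ps1 use the total of the tested genes, adjusted by edgeR's TMM scaling factor of the library. Endothelial markers were read at a summed 20.1 to 25 CPM in the 9 hTDP-43 A315T cords and at 16.3 to 138 CPM in the 22 control cords.

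Promoters are shown for 4 of the genes, those whose differences carry the results (Serpina3n, Gfap and Vim) and the only member with a STAT-type site (Steap4). Each is the 250 bases before the RefSeq transcription start (GRCm38.p6, 5′ to 3′ on the gene's own strand), and all 9 genes were found in that table. Capitals mark matches to 4 searched motifs on either strand, the STAT site TTCNNNGAA, the AP-1 site TGANTCA, the TATA box TATAAA and the CCAAT box CCAAT.
Serpina3n, chr12:104406458-104406707, plus strand: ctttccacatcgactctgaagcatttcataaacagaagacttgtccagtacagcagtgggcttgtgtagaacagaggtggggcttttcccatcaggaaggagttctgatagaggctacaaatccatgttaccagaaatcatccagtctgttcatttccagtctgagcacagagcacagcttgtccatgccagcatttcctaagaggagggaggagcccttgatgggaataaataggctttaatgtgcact
Gfap, chr11:102897201-102897450, minus strand: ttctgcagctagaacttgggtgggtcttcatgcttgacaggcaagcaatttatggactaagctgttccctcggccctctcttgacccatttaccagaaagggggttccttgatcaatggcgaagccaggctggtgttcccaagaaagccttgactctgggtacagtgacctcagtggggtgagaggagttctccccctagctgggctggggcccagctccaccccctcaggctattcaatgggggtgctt
Vim, chr2:13574061-13574310, plus strand: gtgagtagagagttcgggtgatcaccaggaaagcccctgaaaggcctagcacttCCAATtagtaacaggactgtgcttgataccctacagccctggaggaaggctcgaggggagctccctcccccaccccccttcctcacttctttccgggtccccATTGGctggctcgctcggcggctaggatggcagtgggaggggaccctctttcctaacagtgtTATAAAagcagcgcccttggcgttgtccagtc
Steap4, chr5:7960222-7960471, plus strand: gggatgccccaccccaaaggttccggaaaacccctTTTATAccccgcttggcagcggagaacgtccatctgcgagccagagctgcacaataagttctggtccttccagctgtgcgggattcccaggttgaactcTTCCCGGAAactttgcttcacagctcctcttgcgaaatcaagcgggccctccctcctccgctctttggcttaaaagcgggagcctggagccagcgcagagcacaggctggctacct

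The Serpina3n and Gfap windows held none of the 4 motifs. The Vim window held a TATA box 32 bases before the start and CCAAT boxes at 196 and 94 bases before it, the nearer one on the minus strand. The Steap4 window held the STAT-type site, 116 bases before the start, and a TATA box on the minus strand, 215 bases before it. Timp1 had 1 CCAAT box and the other 4 members had no match. Among 27025 RefSeq promoters of the same length, 7.18% held the STAT-type site, 6.87% the AP-1 site, 12.97% the TATA box and 34.46% the CCAAT box, and 1, 0, 2 and 2 of the 9 members did. These are matches of letters, not sites of binding.

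In Chat bacTRAP spinal cord the genes spanned a wide range of levels. Per kilobase of exon, Gfap stood at 256 ± 54.0 CPM (SD, n = 11, both ages), Serpina3n at 26.4 ± 4.19 and Vim at 14.8 ± 2.71, and these 3 did not overlap. Cd44 followed at 1.96 ± 0.644, Lcn2 at 1.6 ± 1.53, S1pr3 at 1.12 ± 0.167, Timp1 at 0.779 ± 0.438, Steap4 at 0.335 ± 0.173 and Osmr at 0.235 ± 0.104. Below Vim and Cd44, which did not overlap, each gene overlapped its neighbour in this order. In hTDP-43 A315T cord (n = 9) the first 3 places were the same, at 397 ± 40.8, 72.8 ± 27.2 and 27.0 ± 4.98 CPM per kilobase, and Timp1 came next at 1.80 ± 0.780.

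Serpina3n, which encodes a secreted inhibitor of serine proteases, was the member with the clearest difference in cord. At 14 weeks its normalized counts (read counts divided by 1 size factor per library) were 2991, 4065, 3794 and 8001 in hTDP-43 A315T. They were 1773, 1453, 1790, 1379.6 and 1287 in Chat bacTRAP and 1343, 1428, 1825, 1308 and 1394 in hTDP-43 WT. Every hTDP-43 A315T library lay above every control, and replicate 4 lay highest of all. From Chat bacTRAP the log2 difference was 1.64 (SE 0.22, adjusted p = 1.34e-05, 3.12-fold) in edgeR's quasi-likelihood test on all 56 libraries. From hTDP-43 WT it was 1.68 (SE 0.22, adjusted p = 7.42e-06, 3.20-fold). Without replicate 4 of hTDP-43 A315T these were 1.27 and 1.31, both past the threshold.

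The difference was present before symptoms. At 9 weeks Serpina3n in hTDP-43 A315T stood at 3639, 5340.5, 2856, 3934 and 3270.4. Chat bacTRAP ran from 1325 through a median of 1506 to 1912 (n = 6), and hTDP-43 WT from 1494 through 1582 to 1739 (n = 6). Again no library of hTDP-43 A315T fell within the controls. From Chat bacTRAP the mutant differed by 1.3 on the log2 scale (SE 0.20, adjusted p = 0.000138). From hTDP-43 WT it differed by 1.24 (SE 0.20, adjusted p = 0.00116). The hTDP-43 WT line showed no such shift. It differed from Chat bacTRAP by -0.04 at 14 weeks (95% interval -0.45 to 0.38) and by 0.06 at 9 weeks (-0.32 to 0.44). The hTDP-43 A315T and hTDP-43 WT lines carry separate transgenes, and the paper describes the hTDP-43 WT level as too low for disease. The part of the mutation, of transgene level and of insertion site in this contrast was not tested. Within hTDP-43 A315T the change from 9 to 14 weeks did not pass the test, and neither did the change of its distance from either control.

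Serpina3n sits in a cluster of related serpin genes on chromosome 12 (104406729 to 104414329, plus strand, GRCm38), whose members could share reads. In the 31 cords the relative with the most reads was Serpina3g, with a median of 136 raw counts against 2563 for Serpina3n. The other 9 relatives in the list had medians of 0 to 38. Of the 18838 genes tested, 0.0212% passed as higher against Chat bacTRAP at 14 weeks and 0.0265% against hTDP-43 WT, which is 4 and 5 genes, Serpina3n among both. At 9 weeks the shares were 0.0372% and 0.0212%.

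**Figure D1:**
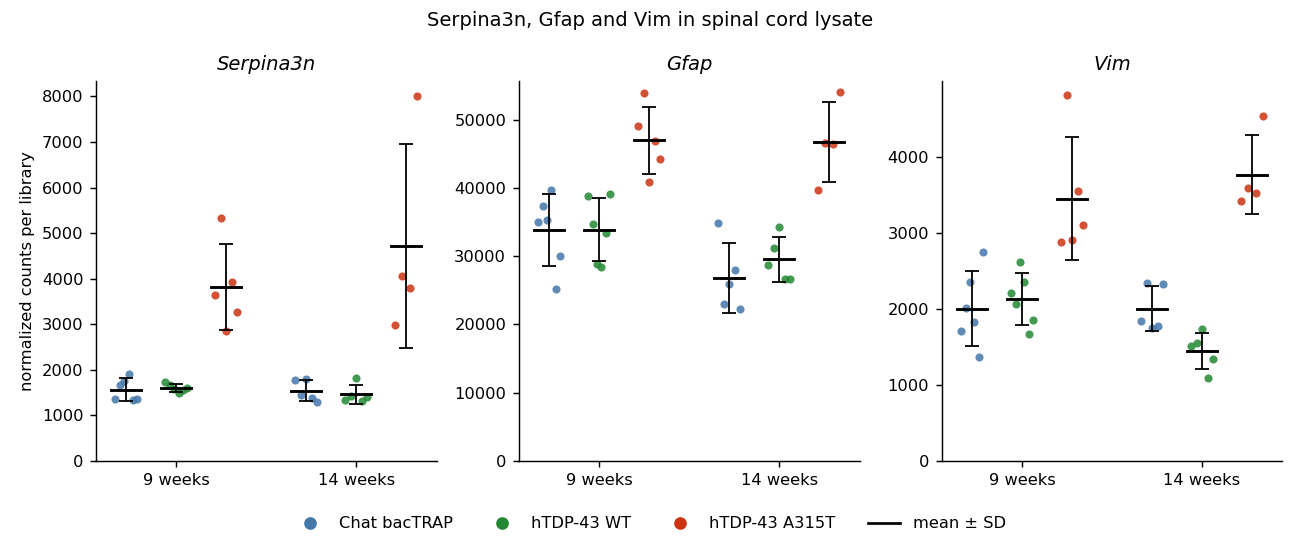
Normalized counts of Serpina3n, Gfap and Vim in spinal cord, 1 point per library, by age and genotype, with the group mean and SD as a black bar and whiskers. For Serpina3n the 9 hTDP-43 A315T points lie between 2856 and 8001 and the 22 control points between 1287 and 1912.

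Gfap (chromosome 11, 102887336 to 102900912, minus strand) encodes the main intermediate filament protein of astrocytes. At 14 weeks its normalized counts were 39766, 46643, 46468 and 54088 in hTDP-43 A315T, 34919.5, 22939, 25894, 28044 and 22315 in Chat bacTRAP, and 28757, 31264, 34308, 26686 and 26717 in hTDP-43 WT. At 9 weeks hTDP-43 A315T held 49045, 53947, 40819, 46931 and 44269, Chat bacTRAP ran from 25260.0 through 35137 to 39780.1, and hTDP-43 WT from 28485 through 34037 to 39147. At each age the mutant group lay above both controls without overlap. The lowest mutant library, at 14 weeks, lay just under the highest control library of 9 weeks.

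These differences did not pass the test on all 56 libraries. The log2 difference at 14 weeks was 0.83 (SE 0.33) against Chat bacTRAP and 0.65 (SE 0.33) against hTDP-43 WT, and at 9 weeks 0.49 (SE 0.30) and 0.46 (SE 0.30), with unadjusted p of 0.0161, 0.0561, 0.112 and 0.131. That test shares 1 estimate of spread between cord and the more variable MN-TRAP libraries. In a fit of the 31 cord libraries alone, the estimates were almost the same and the SE at 14 weeks fell to 0.14. There Gfap passed at 14 weeks against both controls (adjusted p = 0.00269 and 0.0356) and missed at 9 weeks (0.0968 and 0.104). Gm26668, annotated on the opposite strand, overlaps Gfap, and the library kit did not mark strand.

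Vim (chromosome 2, 13573927 to 13582826, plus strand) encodes vimentin, the filament partner of Gfap in reactive astrocytes, and is also made by vessel cells and fibroblasts. Its normalized counts at 14 weeks were 3419, 3589, 3517 and 4540.1 in hTDP-43 A315T, 1843, 2333, 1743, 1775 and 2322 in Chat bacTRAP, and 1516, 1545, 1730.0, 1094 and 1334 in hTDP-43 WT. At 9 weeks they were 2877, 4812, 2902, 3547 and 3101 in hTDP-43 A315T, 1359 to 2753 (median 1919) in Chat bacTRAP and 1671 to 2622 (median 2136) in hTDP-43 WT. All 9 mutant libraries lay above all 22 controls, as for Serpina3n. Without overlap, 1.28% and 2.97% of all genes lay above Chat bacTRAP and hTDP-43 WT at 14 weeks, and 1.01% and 2.14% at 9 weeks. The share over both ages and both controls together was not counted.

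Against Chat bacTRAP the log2 difference of Vim was 0.95 (SE 0.31) at 14 weeks and 0.80 (SE 0.28) at 9 weeks, and against hTDP-43 WT 1.37 (SE 0.31) and 0.70 (SE 0.28). None of the 4 passed on all 56 libraries, and the smallest adjusted p was 0.124. All 4 passed in the fit of the cord libraries alone, at adjusted p of 0.00321 and 0.00484 against Chat bacTRAP and 1.2e-05 and 0.0235 against hTDP-43 WT. In the cord libraries of 9 weeks alone 1 member passed against hTDP-43 WT, where 2 (Serpina3n and Vim) had passed in the fit of all cords. In those of 14 weeks alone 3 members passed against hTDP-43 WT, where 5 had. For these fits of 1 age the share of all genes that passed is not given. The controls at 14 weeks also differed in level, with every hTDP-43 WT library below every Chat bacTRAP library (as for 0.414% of genes), but that difference of -0.43 (SE 0.29) passed neither fit. The 8 endothelial markers, none of which passed at either age, had a median log2 difference of -1.59 from Chat bacTRAP at 14 weeks and -1.41 at 9 weeks. From hTDP-43 WT it was -0.33 and -1.24.

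Timp1 (chromosome X, 20870166 to 20874735, plus strand) encodes a secreted inhibitor of matrix metalloproteinases. It was read sparsely, at 9 to 170 raw counts per cord. At 14 weeks its normalized counts were 35.1, 37.5, 40.4 and 55.0 in hTDP-43 A315T, 12.1, 19.8, 14.1, 14.8 and 20.6 in Chat bacTRAP, and 13.1, 11.6, 13.0, 7.74 and 20.4 in hTDP-43 WT, without overlap. At 9 weeks the mutant held 27.8, 93.4, 32.4, 40.2 and 41.3 and overlapped both controls, which ran from 6.71 to 41.5 in Chat bacTRAP and from 15.1 to 32.1 in hTDP-43 WT.

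The log2 difference of Timp1 at 14 weeks was 1.41 (SE 0.56) against Chat bacTRAP and 1.66 (SE 0.56) against hTDP-43 WT, and at 9 weeks 1.08 (SE 0.51) and 0.98 (SE 0.50). None passed on all 56 libraries. In the cord libraries alone 1 of the 4 passed, the one against hTDP-43 WT at 14 weeks (adjusted p = 0.0472). The span of Timp1 overlaps that of the neuronal gene Syn1 on the opposite strand. Without strand, reads from a stretch of exon shared by both could not be told apart. Whether their exons overlap was not examined.

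Lcn2 (chromosome 2, 32384633 to 32388252, minus strand) encodes a secreted lipocalin that binds bacterial siderophores. No genotype comparison of it passed in cord. At 14 weeks it was 70.2, 54.2, 92.1 and 107 in hTDP-43 A315T, 67.9, 427, 50.5, 36.3 and 160.0 in Chat bacTRAP, and 67.2, 49.2, 53.3, 41.8 and 32.9 in hTDP-43 WT. At 9 weeks it was 175, 202, 59.8, 58.0 and 81.2 in hTDP-43 A315T, 41.5 to 240.3 in Chat bacTRAP and 66.1 to 128 in hTDP-43 WT. The highest values belonged to single Chat bacTRAP libraries. The log2 difference at 14 weeks was -0.82 (95% interval -1.75 to 0.12) against Chat bacTRAP and 0.71 (-0.22 to 1.64) against hTDP-43 WT, and it passed in neither fit at either age.

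S1pr3, the first of the receptors, responds to the lipid sphingosine phosphate and lies on chromosome 13 (51408639 to 51422797, plus strand). Its normalized counts were 195, 160.5, 156 and 245 in hTDP-43 A315T, 114, 155, 143, 161 and 139 in Chat bacTRAP, and 109, 88.1, 135, 115 and 81.5 in hTDP-43 WT. The mutant lay above hTDP-43 WT without overlap and overlapped Chat bacTRAP. At 9 weeks the mutant held 200.2, 221, 169, 201 and 189, against 99.4 to 169 and 115 to 216. On all 56 libraries the log2 difference of S1pr3 from Chat bacTRAP and hTDP-43 WT was 0.44 (SE 0.43) and 0.83 (SE 0.43) at 14 weeks and 0.48 (SE 0.39) and 0.33 (SE 0.39) at 9 weeks, and none passed. In the cord libraries alone 1 of the 4 passed, that with hTDP-43 WT at 14 weeks (adjusted p = 0.0187), and the others stood at an adjusted p of 0.19 to 0.223. That call was lost in the cord libraries of 14 weeks alone (0.83, adjusted p = 0.105).

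Osmr (chromosome 15, 6813577 to 6874969, minus strand) encodes the oncostatin M receptor, which pairs with gp130. At 14 weeks it was 97.0, 107.8, 101.04 and 126.9 in hTDP-43 A315T, 43.4, 144, 73.3, 99.0 and 151 in Chat bacTRAP, and 55.7, 28.0, 89.4, 35.6 and 54.6 in hTDP-43 WT. The mutant thus lay above hTDP-43 WT and within the spread of Chat bacTRAP. The log2 difference was 0.13 (-1.24 to 1.5) against Chat bacTRAP and 1.03 (-0.34 to 2.40) against hTDP-43 WT, and neither passed in either fit.

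Cd44 (chromosome 2, 102811141 to 102901665, minus strand), a receptor for hyaluronan, ranged over 245 to 401 normalized counts in the 9 mutant cords and over 215 to 613 in the 22 controls. Its log2 differences ran from -0.36 to 0.18 in the 4 comparisons, and in the fit of cord alone the interval at 14 weeks was -0.66 to 0.32 against Chat bacTRAP and -0.33 to 0.65 against hTDP-43 WT. Steap4 (chromosome 5, 7960457 to 7982213, plus strand), a metalloreductase, ranged over 18.5 to 57.3 in the mutant and 9.47 to 62.9 in the controls. Its log2 differences ran from -0.28 to 1.09. Neither gene passed in either fit. With limma-voom Cd44 passed as lower against hTDP-43 WT at 9 weeks (-0.44, adjusted p = 0.0272) and Steap4 as higher at 14 weeks (1.06, adjusted p = 0.0237). With 14 to 110 raw counts per cord the intervals for Steap4 are wide.

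**Figure D2:**
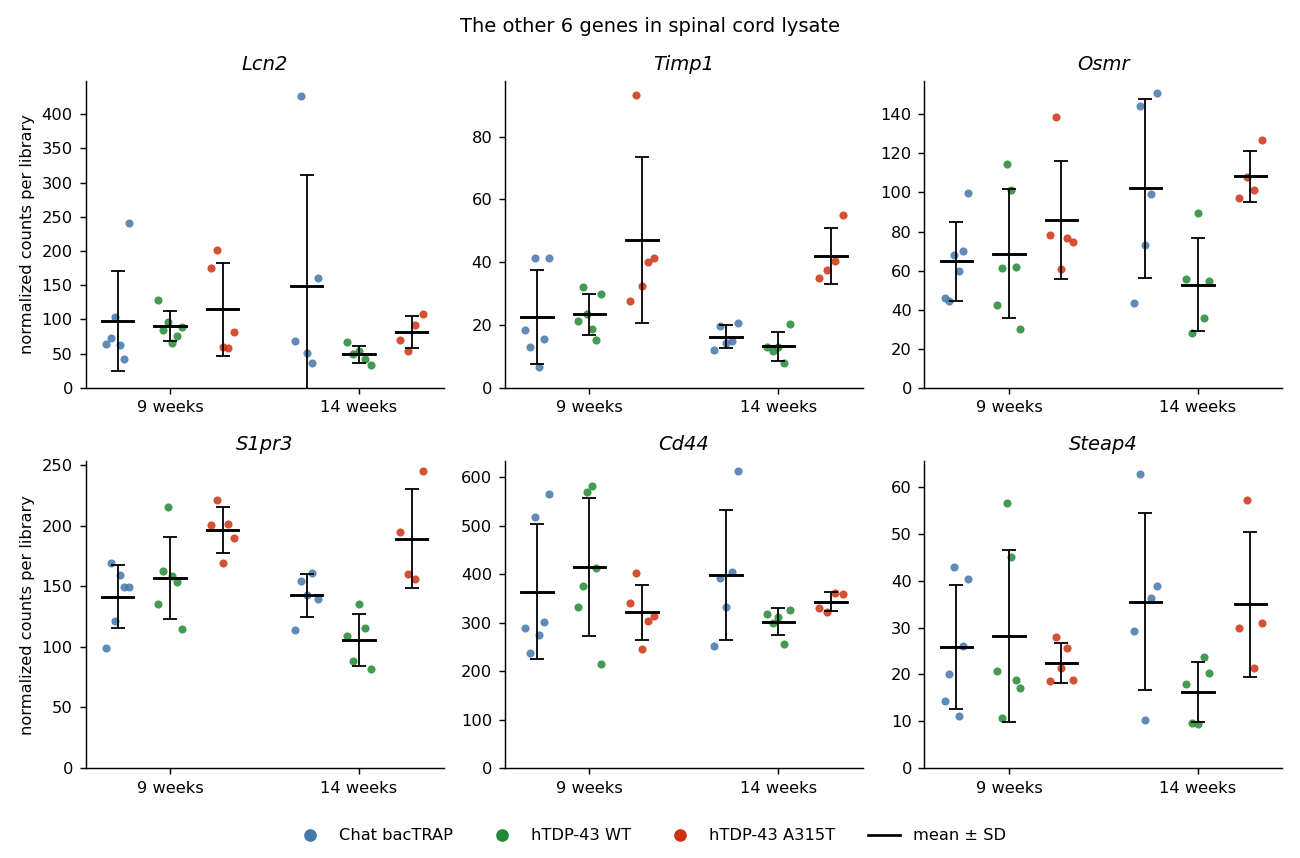
Normalized counts of the other 6 genes in spinal cord, 1 point per library, with group mean and SD (whiskers that would pass below 0 are cut there). Timp1 and S1pr3 lie toward the top in hTDP-43 A315T at both ages. Both overlap controls at 9 weeks, and S1pr3 also overlaps Chat bacTRAP at 14 weeks. The highest Lcn2, Osmr, Cd44 and Steap4 values belong to control libraries.

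Counted over the 9 genes, 1 passed as higher and 0 as lower in each of the 4 comparisons of hTDP-43 A315T with a control on all 56 libraries. In the cord libraries alone 3 passed against Chat bacTRAP and 5 versus hTDP-43 WT at 14 weeks, and 2 and 2 at 9 weeks, all higher. Of the 18178 genes tested there, 0.16% and 0.297% passed as higher at 14 weeks and 0.314% and 0.237% at 9 weeks, and 0.11%, 0.022%, 0.121% and 0.121% as lower. On all 56 libraries 0.00531% passed as lower against Chat bacTRAP at 9 weeks and 0.0% in the other 3 comparisons. The median log2 difference of the 9 was 0.44 and 1.03 at 14 weeks and 0.48 and 0.34 at 9 weeks, beside -0.01, 0.01, -0.01 and -0.04 over all genes tested. In the comparisons of hTDP-43 WT with Chat bacTRAP 0 members passed in either fit at either age, where 0.00531% of genes passed as higher at 14 weeks on all 56 libraries and 0.0055% in cord alone. At 14 weeks 4 members lay without overlap above Chat bacTRAP and 6 above hTDP-43 WT, where 1.28% and 2.97% of all genes did. At 9 weeks 3 did against each control, beside 1.01% and 2.14%.

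Pooling both ages, an addition made after the data were seen, gave 1 member (Serpina3n, 1.47, SE 0.15, adjusted p = 1.37e-09) against Chat bacTRAP and 2 (Serpina3n, 1.46, SE 0.15, and Vim, 1.03, SE 0.21, adjusted p = 0.0092) against hTDP-43 WT on all 56 libraries, where 0.0849% and 0.106% of genes passed as higher. In the cord libraries alone 2.05% and 2.32% of genes passed as higher and 4.26% and 3.42% as lower. There Gfap, Vim, Serpina3n, Timp1 and S1pr3 passed as higher against both controls. Osmr stood closest outside, at 0.69 (SE 0.23, adjusted p = 0.066) against hTDP-43 WT.

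**Figure D3:**
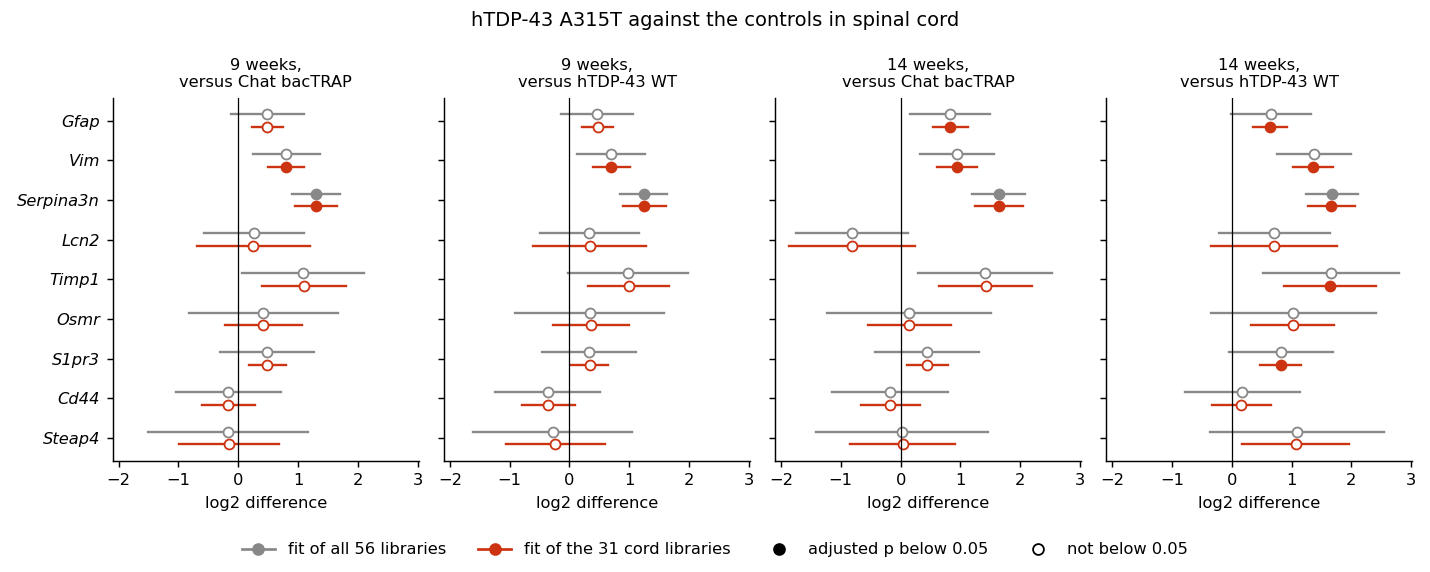
Log2 difference of hTDP-43 A315T from each control in spinal cord (x axis) for the 9 genes (y axis), with 95% intervals, from the fit of all 56 libraries in grey and of the 31 cord libraries in red. Filled points have an adjusted p below 0.05. Serpina3n is filled in both fits in all 4 panels, and the intervals of Gfap and Vim are narrower in the cord fit at the same estimates.

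With age the members did not pass any test. Between 9 and 14 weeks 0 of 9 passed in hTDP-43 A315T, hTDP-43 WT and Chat bacTRAP in either fit, and on all 56 libraries 0 of the 18838 genes did by edgeR. In hTDP-43 WT all 9 members were lower at 14 weeks, with log2 changes from -0.87 to -0.12 and a median of -0.54. In hTDP-43 A315T the changes ran from -0.49 to 0.64, with a median of 0.11. The change from 9 to 14 weeks in the distance between the mutant and hTDP-43 WT was above 0 for all 9 members, with a median of 0.54, and against Chat bacTRAP for 5. None passed, and of the members' tests of age on all 56 libraries 1 had an unadjusted p below 0.05, that of Lcn2 in hTDP-43 WT (0.0463).

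Few other genes of the astrocyte reaction passed. Of 4 further genes seen in most forms of reactivity (Cxcl10, Hspb1, Cp and Aspg), 0 passed on all 56 libraries, and in cord alone Cxcl10, a chemokine, passed against hTDP-43 WT at 14 weeks (1.80, adjusted p = 0.00815). Of 12 genes linked to inflammation, 11 were tested and 0 passed in either fit at either age. The 4 with the smallest p there were Ggta1, Fbln5, Psmb8 and H2-D1. Their differences from Chat bacTRAP at 14 weeks in cord alone ran from -0.43 (Fbln5) to 0.15 (Ggta1). From hTDP-43 WT Ggta1 stood at 0.82 (adjusted p = 0.0993), Psmb8 at 0.82 (adjusted p = 0.247), H2-D1 at 0.35 and Fbln5 at -0.0013. Of 12 genes linked to ischemia, 11 were tested and 0 passed on all 56 libraries. In cord alone Tgm1, a transglutaminase, passed at 9 weeks against both controls. At 14 weeks Tgm1 stood at 1.85 and 1.79 without passing, and Cd109, S100a10 and Clcf1 at 0.08 to 1.06.

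In the gp130 and STAT3 route, 12 of 13 listed genes were tested and 0 passed on all 56 libraries. In cord alone Socs3, the feedback inhibitor that STAT3 induces, passed against hTDP-43 WT at 14 weeks (1.15, adjusted p = 0.0162) and against both controls at 9 weeks. At 14 weeks Stat3 stood at 0.42 and 0.26, the ligand gene Osm at 1.10 and 1.05, and Lifr, a sister receptor, at -0.31 and -0.32, and none of these passed. Over both ages in cord alone Osm, Stat3 and Socs3 passed as higher against both controls. Of 5 filament partners, Nes, the gene of nestin, passed against hTDP-43 WT at 14 weeks in cord alone (1.06, adjusted p = 0.0428), while Lmna, Plec and Des did not pass.

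The remaining partners of the members did not pass at either age in either fit. These were the 8 genes of sphingosine phosphate signalling, with S1pr4 at -1.44 and S1pr1 at -0.38 against Chat bacTRAP at 14 weeks in cord alone, and Sphk1 at 0.10. They were also 7 tested ligands of Cd44 and targets of Timp1 (Spp1, -0.37 and -0.25), and the Lcn2 receptors Lrp2 (-1.27 and -0.37) and Slc22a17 (0.12 and 0.14). Over both ages in cord alone Lrp2 passed as lower against Chat bacTRAP, as 4.26% of genes did. The related genes Steap2, Timp2, Timp3 and Timp4 were read more than the members they resemble, with medians of 3398, 23864, 692 and 2039 raw counts, and none passed.

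Cell type markers give the setting of these changes in the lysate, where fewer cells of a type and less RNA per cell cannot be told apart. The 15 astrocyte identity genes had a median log2 difference of -0.31 and -0.16 at 14 weeks and -0.19 and -0.16 at 9 weeks on all 56 libraries, and 0 passed. Their summed level was 5434 to 6847 CPM in the mutant and 5922 to 7592 CPM in the controls. In cord alone over both ages Aldh1l1 passed as higher and the gap junction genes Gja1 and Gjb6 as lower against Chat bacTRAP. Microglial markers stood at a summed 166 to 325 CPM in the mutant and 123 to 294 in the controls, with Tyrobp and Trem2 higher against both controls in cord alone over both ages. Oligodendrocyte markers stood at 15879 to 19340 CPM in the mutant and 17899 to 26729 in the controls, and mural and fibroblast markers at 126 to 167 and 77.6 to 492. All endothelial genes, 8 of 8, passed as lower against Chat bacTRAP in cord alone over both ages, and 1 of 8 did versus hTDP-43 WT. No gene of these lists was at 0 in every cord library of a group. The part of these shifts in the members' differences was not tested.

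Within groups the members varied together in part. Log2 CPM of each gene was centred on its group mean, and the 36 pairs were tested over the 31 cords by permuting libraries within groups (100000 permutations, two-sided, Benjamini-Hochberg over the pairs). Serpina3n and Gfap varied together (Pearson r = 0.68, Spearman rho = 0.76, permutation p = 1e-05 for each, the smallest they can give, adjusted p = 0.00018), and r was 0.72 without the 2 libraries farthest from the median of Serpina3n. Cd44 and Osmr did likewise (r = 0.79, rho = 0.76, adjusted permutation p = 0.00018, r = 0.76 without 2 libraries). Vim varied with Lcn2 (r = 0.62, rho = 0.60, adjusted permutation p = 0.003). In all 7 of 36 pairs passed by Pearson r and 11 by Spearman rho, and 3 by Pearson r when the 2 farthest libraries were left out. The pair of filament genes, Gfap and Vim, was not among them.

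**Figure D4:**
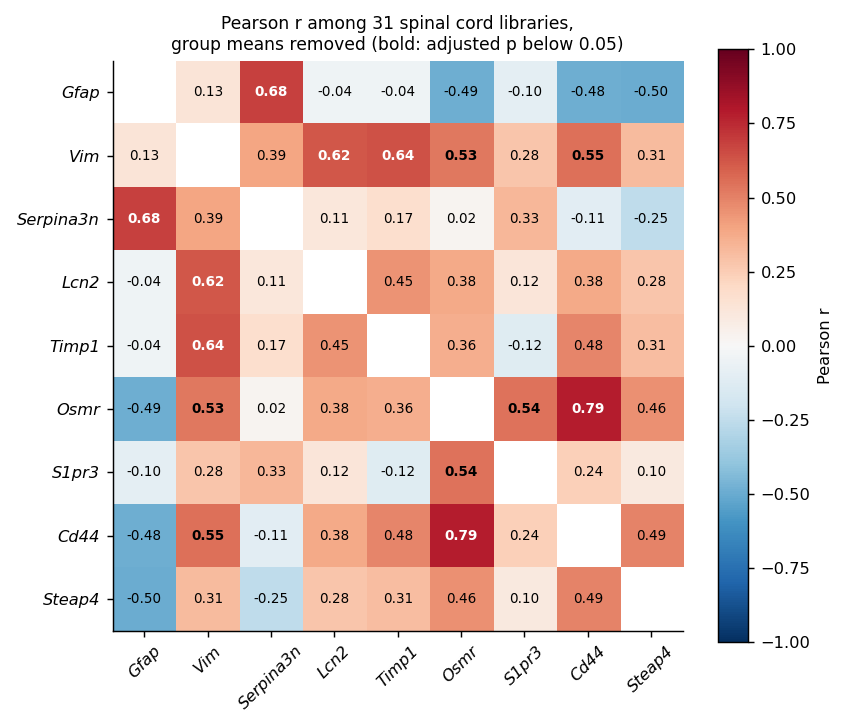
Pearson r between the 9 genes over 31 spinal cord libraries after removal of group means, with colour from -1 (blue) to 1 (red) and pairs with an adjusted p below 0.05 in bold. Serpina3n with Gfap (0.68) and Cd44 with Osmr (0.79) stand out, and Gfap is negative with Cd44, Osmr and Steap4.

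The same within-group values were set beside the levels of cell type markers, a relation looked at after the data were seen. Of 54 relations between a member and the summed level of a marker list, 13 passed by Pearson r. The adjusted permutation p given below are those of r. By Spearman rho, Cd44 with microglial markers (adjusted permutation p = 0.0752) and Lcn2 with oligodendrocyte markers (adjusted permutation p = 0.05985) missed. The 13 involved 6 of the members. Osmr varied with 4 lists, endothelial (r = 0.78, rho = 0.72, adjusted permutation p = 0.00135), mural and fibroblast (r = 0.76, rho = 0.65, adjusted permutation p = 0.00108), microglial (r = 0.66, rho = 0.59, adjusted permutation p = 0.0027) and oligodendrocyte markers (r = 0.58, rho = 0.55, adjusted permutation p = 0.0153). Cd44 varied with the same 4, mural and fibroblast (r = 0.76, rho = 0.61, adjusted permutation p = 0.00198), oligodendrocyte (r = 0.69, rho = 0.67, adjusted permutation p = 0.00387), endothelial (r = 0.61, rho = 0.57, adjusted permutation p = 0.0181) and microglial (r = 0.50, rho = 0.46, adjusted permutation p = 0.0295). Steap4 (r = 0.63, rho = 0.62, adjusted permutation p = 0.0153) varied with mural and fibroblast markers, and S1pr3 with microglial ones (r = 0.56, rho = 0.50, adjusted permutation p = 0.0153). Gfap ran against mural and fibroblast markers (r = -0.61, rho = -0.57, adjusted permutation p = 0.0166). Lcn2 varied with astrocyte identity genes (r = 0.67, rho = 0.64, adjusted permutation p = 0.00387) and oligodendrocyte markers (r = 0.52, rho = 0.50, adjusted permutation p = 0.0457). Serpina3n, Vim and Timp1 passed with none of the 6 lists. Without the 2 libraries farthest from the median of the marker level the 12 positive r ran from 0.46 to 0.75, and that of Gfap was -0.56.

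Across all 31 cords, group differences included, the genes most like Gfap among 14359 genes with at least 1 CPM on average were Dhrs1 (Pearson r of log2 CPM 0.92), Plin2 (0.90), Lgals3 (0.89), Aldh1l1 (0.87) and Ctnnbl1 (0.87), with Serpina3n next at 0.86. Most like Serpina3n were Lgals3 (0.94), Gpnmb (0.93), Ccn5 (0.92), C4b (0.89) and Atf3 (0.87), with Gfap at 0.86 and Vim at 0.85. Spearman rho with Serpina3n was in the same order 0.92, 0.77, 0.75, 0.80, 0.65, 0.86 and 0.68. With Gfap the rho of the genes named ran from 0.86 to 0.92. These values describe libraries that share genotype, depth and cell make-up, and carry no test.

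In MN-TRAP, Serpina3n passed in no genotype comparison, with normalized counts of 2045, 3198, 3339.9 and 4016 for the mutant at 14 weeks, 2357, 3802, 4444 and 3585 for Chat bacTRAP and 2558, 2255, 4935, 2625 and 3446 for hTDP-43 WT. The log2 difference was -0.06 (95% interval -0.53 to 0.41) and -0.02 (-0.46 to 0.42). At 9 weeks it was 0.58 (0.14 to 1.03, adjusted p = 0.253) against Chat bacTRAP, with the groups apart as for 0.472% of genes, and 0.23 (-0.26 to 0.72) against hTDP-43 WT. The hTDP-43 WT libraries of 9 weeks (3417 to 3814, n = 3) also lay above those of Chat bacTRAP (1881 to 3084, n = 4) without overlap. The share of all genes was not counted for that comparison. Over both ages MN-TRAP held more Serpina3n than cord in Chat bacTRAP (1.08, SE 0.15, adjusted p = 3.32e-08) and hTDP-43 WT (1.23, SE 0.15, adjusted p = 2.67e-09), where 23.6% and 24.6% of genes passed as higher. In hTDP-43 A315T it did not (-0.13, SE 0.15, adjusted p = 0.477).

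That difference between genotypes was itself tested, in a comparison added after the data were seen. The ratio of MN-TRAP to cord for Serpina3n was lower in hTDP-43 A315T than in Chat bacTRAP by a log2 difference of -1.21 (SE 0.22, adjusted p = 0.00309) and than in hTDP-43 WT by -1.36 (SE 0.22, adjusted p = 0.000852). Of all genes 0.435% and 0.626% passed as lower. The call was lost with limma-voom and quality weights (-1.10 and -1.22, adjusted p = 0.155 and 0.116).

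Against hTDP-43 WT the ratios of Gfap (-1.42, adjusted p = 0.0283) and Vim (-1.41, adjusted p = 0.0198) were lower too, and with Chat bacTRAP neither passed. Both calls were lost with limma-voom (Gfap -1.25, adjusted p = 0.0617, and Vim -1.30, adjusted p = 0.0706) and with the replicate number as a block (-1.31 and -1.39, adjusted p = 0.0518 each). Without the 3 control MN-TRAP libraries with Lamr1-ps1 reads, Gfap also passed against Chat bacTRAP (-1.05, adjusted p = 0.0475). Gfap lost its call without single libraries, which were hTDP-43 A315T 14 weeks cord replicate 4 (-1.38), 14 weeks MN-TRAP replicate 1 (-1.33) and 9 weeks MN-TRAP replicate 5 (-1.38), and hTDP-43 WT 14 weeks MN-TRAP replicate 2 (-1.31) and 9 weeks MN-TRAP replicate 2 (-1.01, adjusted p = 0.52).

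Glial markers had ratios of the same sign. For MN-TRAP of the mutant, hTDP-43 WT and Chat bacTRAP the summed level of oligodendrocyte markers was 1590 to 2603, 2213 to 22606 and 1688 to 19530 CPM, and that of astrocyte identity genes was 2950 to 3949, 3103 to 7299 and 2941 to 6147 CPM. The ratio of MN-TRAP to cord in hTDP-43 A315T was below that in hTDP-43 WT for all 6 oligodendrocyte markers (median -1.31) and for all but 1 of the 15 astrocyte identity genes (median -1.17), of which 0 and 1 passed. Against Chat bacTRAP these medians were -1.16 and -0.92. The part of glial RNA in the ratios of Gfap, Vim and Serpina3n was not tested.

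Lcn2 was the other secreted protein that stood higher in MN-TRAP, and it did so in every genotype. The log2 ratio to cord was 2.44 (SE 0.34) in hTDP-43 A315T, 2.84 (SE 0.33) in hTDP-43 WT and 1.99 (SE 0.32) in Chat bacTRAP, with adjusted p of 1.66e-08, 4.48e-10 and 7.92e-07. In hTDP-43 A315T the MN-TRAP libraries held 260.5 to 812 normalized counts and the cords 54.2 to 202, without overlap, as 12.5% of genes did. No genotype comparison of Lcn2 in MN-TRAP passed.

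Most filament and receptor genes were lower in MN-TRAP than in cord. In the order hTDP-43 A315T, hTDP-43 WT, Chat bacTRAP, the log2 ratio of Gfap was -3.12, -1.71 and -2.18. For Vim it was -1.92, -0.51 and -1.03, for Osmr -2.11, -1.81 and -1.19, for Steap4 -2.48, -1.91 and -1.58, and for S1pr3 -1.26, -0.86 and -0.82. All of these passed except Vim in hTDP-43 WT (adjusted p = 0.0657), where 34.1%, 29.7% and 34.1% of genes passed as lower. In hTDP-43 A315T none of these calls was lost on leaving out a single library. In Chat bacTRAP, leaving out MN-TRAP replicate 1 of 14 weeks moved Osmr to -2.89, Steap4 to -4.92 and S1pr3 to -1.75. There 12, 3 and 4 single omissions ended the calls of Osmr (adjusted p up to 0.0986), Steap4 (0.0595) and S1pr3 (0.0524), and so did leaving out the 3 libraries with Lamr1-ps1 reads for Osmr (-1.04, adjusted p = 0.105) and Steap4 (-1.36, adjusted p = 0.0515). In hTDP-43 WT, Steap4 was -4.11 without MN-TRAP replicate 3 of 9 weeks and lost its call without replicate 2 (-1.39, adjusted p = 0.185) or cord replicate 3 of 9 weeks (-1.75, adjusted p = 0.0517). S1pr3 there lost it without any 1 of the 3 MN-TRAP libraries of 9 weeks (adjusted p up to 0.0536). Cd44 passed in hTDP-43 A315T (-1.01, adjusted p = 0.011) and in neither control. Gfap remained at 3062 to 8443 normalized counts in MN-TRAP of hTDP-43 A315T and 2998 to 18122 in the controls.

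On all 56 libraries Timp1 was the member with a passing genotype difference in MN-TRAP, and other fits named other members. At 14 weeks it was 27.3, 43.3, 13.7 and 41.7 for the mutant and 2.20, 12.1, 1.5 and 17.5 for Chat bacTRAP, with overlap, at a log2 difference of 2.72 (SE 0.82, adjusted p = 0.021) where 7.92% of genes passed as higher and 5.98% as lower. The raw counts behind these values were 6 to 37 in the mutant and only 1 to 3 in Chat bacTRAP. Replicates 2 and 4 of Chat bacTRAP held 2.41 and 4.8 M counted reads. As in cord, the span of Timp1 overlaps that of Syn1 on the opposite strand, and overlap of their exons was not examined. Elsewhere at 14 weeks 0 members passed, where the shares were 0.929% and 6.31% between hTDP-43 A315T and hTDP-43 WT, and 16.1% and 5.45% (0.00605% and 0.0% in the MN-TRAP libraries alone) between hTDP-43 WT and Chat bacTRAP. At 9 weeks 0 members passed, where 0.00531% and 0.547% of genes passed against Chat bacTRAP and 0.149% and 2.12% against hTDP-43 WT in the mutant, and 0.18% and 0.0425% between the controls. In the MN-TRAP libraries alone the Timp1 difference from Chat bacTRAP at 14 weeks was 2.33 (adjusted p = 0.397). In that fit 0 of 16520 genes passed in either direction for this comparison. On all 56 libraries it was 2.22 (adjusted p = 0.114) without Chat bacTRAP replicate 1 and 2.19 (adjusted p = 0.0934) without Chat bacTRAP replicate 3. Without replicate 1 S1pr3 passed instead, at 1.96 (adjusted p = 0.0239) where it had been 0.10.

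At 9 weeks Gfap in MN-TRAP differed between hTDP-43 A315T and hTDP-43 WT by -1.09 (adjusted p = 0.0974). It passed with DESeq2 (-1.17, adjusted p = 0.0346), with median-ratio size factors (-1.18, adjusted p = 0.0487) and without the 3 libraries with Lamr1-ps1 reads (-1.35, adjusted p = 0.00872). Without hTDP-43 WT replicate 1 (-1.39, adjusted p = 0.0351) or 3 (-1.35, adjusted p = 0.0134) it also passed, and without replicate 2 it was -0.28. Between hTDP-43 WT and Chat bacTRAP at 9 weeks Gfap passed without Chat bacTRAP replicate 2 (1.49, adjusted p = 0.0286). In hTDP-43 WT at 9 weeks Timp1 was at 0 in both libraries other than replicate 3, 1 of the 3 with Lamr1-ps1 reads, which held 44.5. The 0 of replicate 1 came from a library of only 0.472 M counted reads. Without the 3 libraries with Lamr1-ps1 reads Timp1 passed between hTDP-43 A315T and hTDP-43 WT (adjusted p = 0.00259) and between hTDP-43 WT and Chat bacTRAP (adjusted p = 0.00797), at fitted log2 differences of 8.31 and -8.13 that rest on a group at 0 and are no bound. The ratio of MN-TRAP to cord in hTDP-43 WT turned from 0.17 to -3.75 (adjusted p = 0.00393), which depends on these zeros too.

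**Figure D5:**
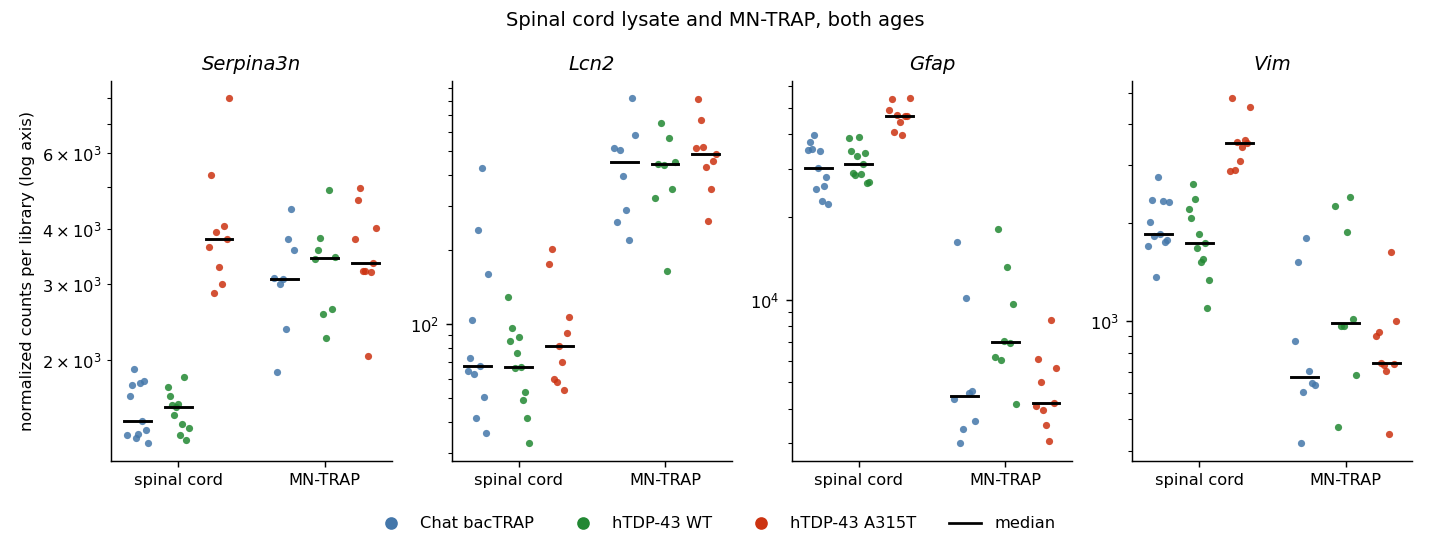
Normalized counts (log axis) of Serpina3n, Lcn2, Gfap and Vim in spinal cord and MN-TRAP, both ages together, 1 point per library, with group medians as black bars. Serpina3n of hTDP-43 A315T is above the controls in cord and among them in MN-TRAP, Lcn2 is higher in MN-TRAP, and Gfap is lower there, as is Vim except in hTDP-43 WT, where its difference did not pass.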

How the data were processed

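RNA was sequenced from 31 spinal cord lysates and 25 MN-TRAP samples. The deposited values per library were raw counts per Ensembl gene, made by the authors with STAR on mm10 (GRCm38) and featureCounts from libraries of a kit that does not mark strand, and a signal of normalized counts that the authors divided by 1 DESeq2 size factor per library. featureCounts was run with its standard settings, which do not use strand.

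Symbols and coordinates came from GENCODE M21 (GRCm38), where 42462 of 43629 gene IDs matched, and promoters from RefSeq. Raw counts were tested with edgeR 4.0.16 (quasi-likelihood, filterByExpr, TMM) in R 4.3.3, with all 56 libraries in 12 groups of genotype, age and fraction and Benjamini-Hochberg adjustment over all 18838 genes tested. A gene passed at an adjusted p below 0.05, in log2 difference of fitted CPM. The script was tested on simulated data. Alternatives were DESeq2 1.42.0, limma-voom 3.58.1 with quality weights, other size factors, no filter, fits of 1 fraction or of 1 fraction and age, the replicate number as a block, and omission of each library and of 3 control MN-TRAP libraries. CPM used library totals of the tested genes adjusted by TMM, except for Lamr1-ps1, where the plain total was used. CPM per kilobase also used exon length. Correlations used log2 CPM with a prior count of 2.

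The 9 genes and the lists were chosen with earlier results of these data known. Named genes were all 9 members, list genes past the threshold against both controls in cord at 14 weeks, and the up to 4 per list with the smallest p there, and the 5 genes most like Gfap and Serpina3n. The tests use the spread between libraries labelled as separate samples. Which cord and MN-TRAP libraries share an animal is not given in the sources used here.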

Additional observations from a re-analysis of the deposited data

Results flagged for a closer look

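Among 99 groups of libraries for 1 gene, 11 held a library whose gap to its nearest neighbour was large for the group's range (Dixon's test), where chance gives about 1 in 20. In spinal cord these were Serpina3n in hTDP-43 WT 14 weeks replicate 3 (1825.33 normalized counts, next 1427.83), Vim in hTDP-43 A315T 14 weeks replicate 4 (4540.11, next 3589.14) and Lcn2 in Chat bacTRAP 9 weeks replicate 6 (240.276, next 103.703). Replicate 2 of hTDP-43 A315T at 9 weeks stood apart for Osmr (138.385, next 78.2118) and Timp1 (93.3553, next 41.3405).

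In MN-TRAP, Chat bacTRAP 14 weeks replicate 1 stood highest for Gfap (10162.7, next 4661.83), Vim (1797.75, next 704.546), Osmr (122.998, next 17.4592) and Steap4 (23.0621, the others at 0). Chat bacTRAP 9 weeks replicate 2 stood highest for Gfap (16195.5, next 4355.17) and lowest for Serpina3n (1881.22, next 2998.29).

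The ratio of MN-TRAP to spinal cord differed between genotypes for Serpina3n, by -1.21 on the log2 scale between hTDP-43 A315T and Chat bacTRAP and by -1.36 between hTDP-43 A315T and hTDP-43 WT. Against hTDP-43 WT it also differed for Gfap (-1.42) and Vim (-1.41). These are edgeR interaction terms on all 56 libraries.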

How the results depend on the processing

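Counts below are members, of 9, that passed. In spinal cord at 14 weeks the count against Chat bacTRAP was 1, and 3 with the cord libraries alone, 3 with the cord libraries of that age alone and 5 with limma-voom. Against hTDP-43 WT it was 1, and 5, 3 and 7. At 9 weeks it was 1 against Chat bacTRAP, and 2, 2 and 5. Against hTDP-43 WT at that age it was 1, and 2 with cord alone and 1 with the cord libraries of that age alone. With limma-voom it was 5, of which Cd44 was lower. Over both ages it was 1 against Chat bacTRAP, and 2 with DESeq2, 5 with cord alone and 5 with limma-voom, and 2 against hTDP-43 WT, and 5 and 6. Leaving out single libraries moved none of these cord counts. The share of all genes that passed is given only for the fits of all 56 libraries and of 1 fraction. Counts from the other settings, here and below, stand without such a share.

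In MN-TRAP at 14 weeks the count between hTDP-43 A315T and Chat bacTRAP was 1. It was 0 with MN-TRAP alone (where 0 of 16520 genes passed), with that age alone and with limma-voom. Leaving out single libraries gave a count of 0 to 1. Between hTDP-43 WT and Chat bacTRAP it was 0, and 0 to 4 on leaving out single libraries, the 4 being Gfap, Vim, Steap4 and S1pr3 without Chat bacTRAP replicate 1. S1pr3 there turned from -0.17 to 1.69, over a range of -0.63 to 1.69. At 9 weeks the count between hTDP-43 A315T and hTDP-43 WT was 0, and 1 with DESeq2, 1 with median-ratio size factors, 2 without the 3 doubted control libraries and 0 to 2 on leaving out single libraries. Between hTDP-43 WT and Chat bacTRAP it was 0, and 1 without the 3 and 0 to 1 on leaving out single libraries.

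For MN-TRAP over cord, leaving out single libraries gave 4 to 7 in hTDP-43 WT and 4 to 8 in Chat bacTRAP. The losses were of Osmr, Steap4 and S1pr3, whose adjusted p reached 0.0986, 0.185 and 0.0536. Timp1 in hTDP-43 WT was 0.17, and -3.75 without the 3 libraries, with a range of -3.83 to 0.60 on leaving out single libraries. For the difference in that ratio the count against Chat bacTRAP was 1, and 0 with limma-voom and 2 without the 3 libraries. Against hTDP-43 WT it was 3, and 0 with limma-voom. Of 36 pairs of members 7 passed, and 3 without the 2 farthest libraries. The cause of these changes was not tested.

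With the replicate number as a block that last count of 3 was 1, as Gfap (-1.31) and Vim (-1.39) missed at an adjusted p of 0.0518 each. Vim in hTDP-43 WT passed for MN-TRAP over cord (-0.55, adjusted p = 0.0469), Osmr in Chat bacTRAP did not (-1.27, adjusted p = 0.0578), and the block changed no other call. Same-numbered cord libraries of different groups had a correlation over 0.1 in 24 of 71 pairs, and cord and MN-TRAP libraries of the same number, genotype and age in 5 of 25. Those 5 were all in hTDP-43 A315T, whose other 4 pairs ran from -0.08 to 0.09. Since not every pair passed 0.1, the numbers were not treated as pairs. Libraries of low depth limit the sparse genes most.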
